A study of Mus musculus and blank sample with 191 samples.

Results

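The 9 uterine gland genes described here, called the members, were followed through spatial whole-transcriptome profiles of the mouse uterus. They are the transcription factors Foxa2, Sox9 and Pax8, the secreted products Cxcl15, Prss28, Prss29, Ovgp1 and Lif, and the enzyme Aldh1a1. The members were taken as a list of symbols, each of which matched 1 of the 19962 targets of the count table, and each target was read by 1 probe. The profiles came from regions of formalin-fixed uterus cores on tissue microarrays, drawn on a GeoMx instrument after staining for pancytokeratin and smooth muscle actin. Mice labelled PV/N carry, in the germline, 1 PV-mutant copy of the gene of thyroid hormone receptor alpha 1 (Thra1PV/+, called PV here), so that every cell of the uterus and of the rest of the animal carries it. Mice labelled N/N are their wild-type counterparts (WT). There were 6 PV mice aged 2.4 to 6.3 months (median 4.1) and 8 WT mice aged 4.0 to 9.0 months (median 5.85), and the label gives the age without a unit, which was read as months from the study. The animals are named by genotype and age, PV1 being the youngest PV mouse and WT8 the oldest WT mouse. Only regions of the first of 2 plates were used. They were 60 regions labelled epithelium (31 PV, 29 WT) and 35 labelled stroma (21 PV, 14 WT), and 1 WT mouse, WT4, had no stroma region there.

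Uterine glands are tubes of columnar epithelium that bud from the luminal lining into the stroma and secrete the proteins that the embryo and the decidua depend on. Foxa2 is the transcription factor that gland formation and gland secretion require, and Lif is the gland cytokine that triggers implantation through its receptor and STAT3. Cxcl15 is a chemokine found in gland cells, Prss28 and Prss29 are neighbouring serine proteases of the gland secretion, and Ovgp1 is a glycoprotein best known from the oviduct. Sox9 marks progenitor and gland epithelium, Pax8 marks epithelium that descends from the Mullerian duct, and Aldh1a1 makes retinoic acid from retinaldehyde. Since the labels do not separate luminal lining from glands, each epithelium region may hold either or both.

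Depth ran from 61691 to 3130397 counts per first-plate region (median 653387), and the mouse, not the region, was the replicate. Regions per mouse ran from 1 to 15 in epithelium, with PV2 at 1 region and PV4 at 15. The compartment labels were checked against tissue markers. A score, the mean log2 level of 12 genes of columnar epithelium less the mean of 10 genes of fibroblasts, was 0.136 to 3.27 in the epithelium regions and -6.46 to -2.90 in the stroma regions, with no overlap.

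Which members could be read at all was asked first, by dividing each count by the negative-probe count (NegProbe-WTX) of its region, which is the signal of probes with no mouse target. A ratio of 1 therefore means no signal over unspecific binding, and a region was counted as detecting a gene when the count passed the limit of quantification, the negative-probe level times the square of its geometric standard deviation. That limit lay at a median of 3.22 times the negative-probe count. Over all targets the median was 2.85 times in epithelium and 3.24 times in stroma, and 49.8% of target and region pairs in epithelium and 51.9% in stroma passed the limit.

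Prss28 and Prss29 lay near the negative-probe level everywhere. Prss28 had a median of 1.38 times the negative-probe count over the 95 regions, with a highest value of 4.28, and passed the limit in 2 regions. Prss29 had a median of 1.14 times and a highest value of 4.88, was below the negative probes in 38 regions, and passed the limit in 4, all of them WT epithelium. Neither protease is in the authors' filtered table, and no difference between groups was called for them.

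Foxa2 was near the negative-probe level in stroma and above it in epithelium. In stroma its ratio ran from 0.641 to 3.08 with a median of 1.80, and 0 of 35 regions passed the limit. In epithelium it ran from 0.873 to 68.1 with a median of 5.09, and 40 of 60 regions passed, 21 of 31 in PV and 19 of 29 in WT. Of the 21 PV regions, 14 were of PV4, and regions over the limit came from 4 of 6 PV mice and 8 of 8 WT mice. The regions of a mouse are not independent, and the difference between these shares was not tested.

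Ovgp1 was near the negative-probe level in stroma and in PV epithelium, but not in all of the WT epithelium. Its median ratio was 1.96 in stroma, with 5 of 35 regions over the limit, and 1.99 in PV epithelium, with 4 of 31 over it. Those 4 PV epithelium regions were all of PV4. In WT epithelium the median was 3.03, the highest value 44.3, and 19 of 29 regions, from 7 of 8 mice, were over the limit. Lif and Cxcl15 sat close to the limit in most regions, whatever the compartment, with a minority of epithelium regions far above it. The median of Lif was 3.38 in epithelium and 2.89 in stroma, and that of Cxcl15 was 3.90 and 3.38. Aldh1a1 had medians of 3.97 and 3.61, the highest being 187 in epithelium and 12.2 in stroma.

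Sox9 and Pax8 were the clear signals. Pax8 passed the limit in 60 of 60 epithelium regions at a median of 28.0 times the negative-probe count, against 12 of 35 stroma regions at a median of 2.86. Sox9 passed it in 58 of 60 epithelium regions at a median of 22.1, against 13 of 35 stroma regions at 2.53. Each target has a single probe of its own affinity, so these ratios do not rank the genes against each other.

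**Figure D1:**
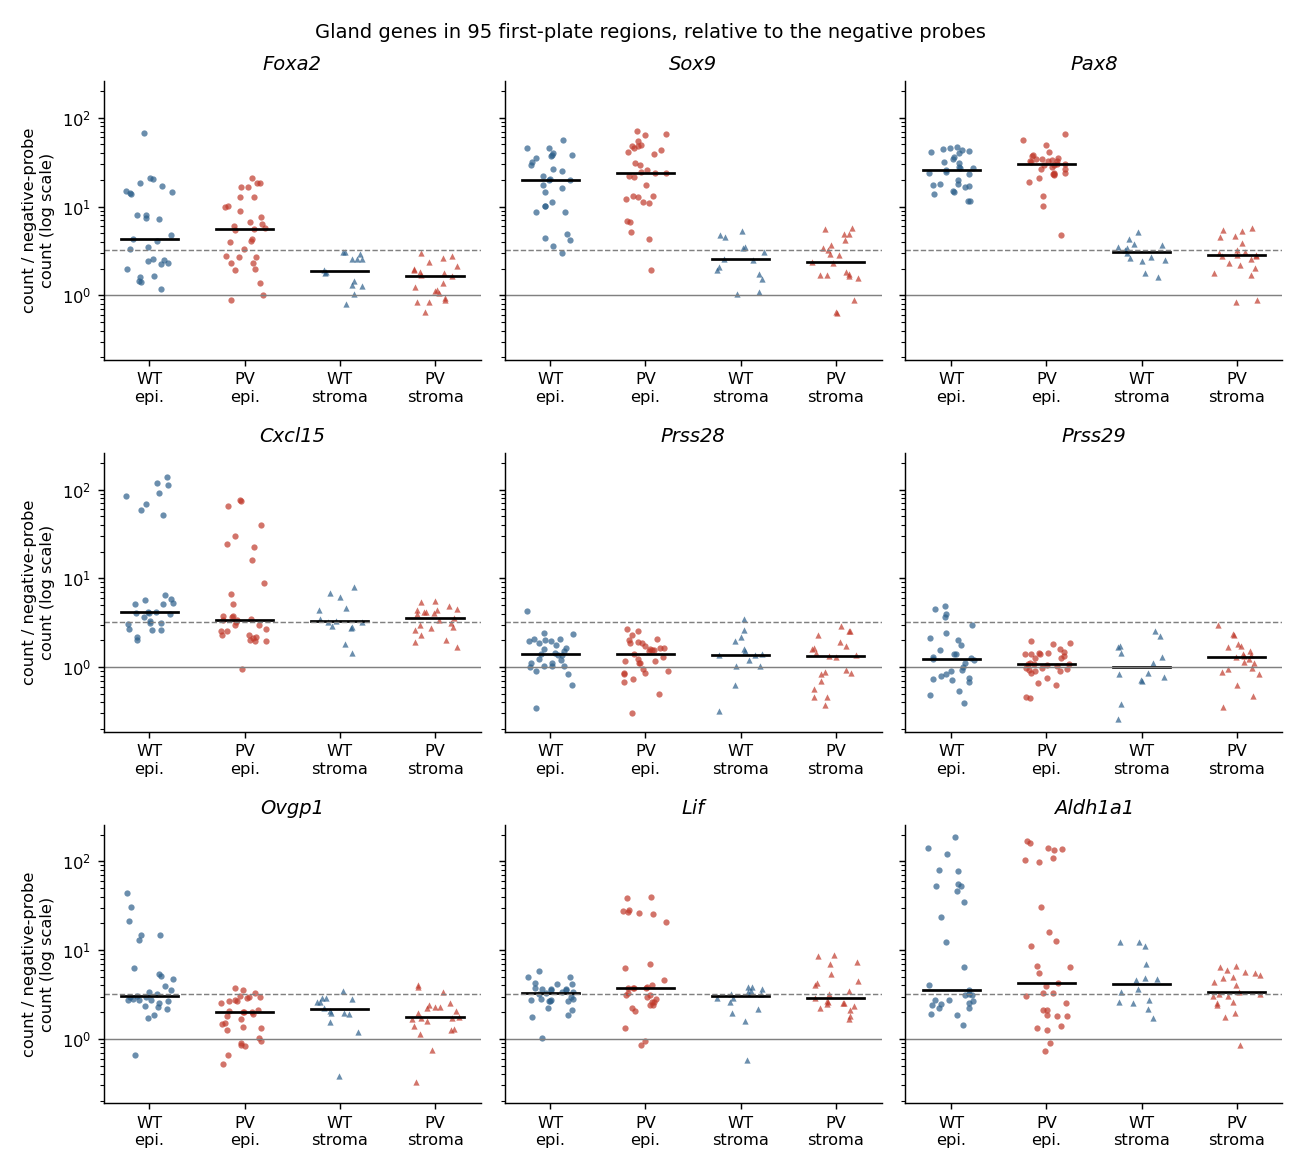
Count of each member divided by the negative-probe count of the same region (log axis), for 95 first-plate regions in 4 groups. Points are regions (circles epithelium, triangles stroma; blue WT, red PV), black bars are medians, the solid line is a ratio of 1 and the dashed line the median limit of 3.22. Prss28 and Prss29 stay around the solid line in every group, Pax8 and Sox9 lie far above the dashed line in epithelium, and Cxcl15, Aldh1a1, Ovgp1 and Lif show a low bulk of regions with a separate upper group.

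Epithelium was then compared with stroma of the same mice, to ask which members belong to the epithelium in these samples. All regions of a mouse within a compartment were added up before testing, and 13 mice had both compartments. Of the 9 members, 7 were in the tested table, and 6 of them were higher in epithelium by the quasi-likelihood test of edgeR with Benjamini-Hochberg adjustment. The comparison called 63% of the 14881 genes tested, 28.4% as higher in epithelium and 34.6% as lower, so that being called was common in itself. Upper-quartile scaling moved this split to 3241 higher and 6443 lower genes, from 4229 and 5151, and shifted the median of all genes from -0.05 to -0.18. The median log2 difference was 1.71 over the 7 tested members and -0.05 over all genes. A lower value in a region can come from fewer cells of a type or from less RNA per cell, and these cannot be told apart here.

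The 3 transcription factors were higher in epithelium in 13 of 13 mice by log2 CPM. In PV2 this rested on very few counts, in epithelium and stroma 5 and 2 for Pax8, 2 and 2 for Sox9 and 2 and 1 for Foxa2. Pax8 in epithelium had 6.25 to 7.69 log2 CPM, the log2 of the count scaled to the library size (median 7.27), in PV mice and 6.67 to 7.77 (median 7.48) in WT mice. In stroma it had 3.75 to 4.41 (median 4.30) in PV and 3.75 to 4.64 (median 4.19) in WT mice, so that the lowest epithelium value was above the highest stroma value. Its log2 fold change was 3.03 ± 0.15 (SE), with an edgeR adjusted p of 8.32e-12.

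Sox9 in epithelium ran from 4.95 to 7.89 log2 CPM (median 5.85) in PV and from 6.11 to 7.92 (median 6.89) in WT mice. In stroma it ran from 2.58 to 4.47 (median 4.21) and from 2.80 to 4.61 (median 4.07). The compartments did not overlap, and PV2, the mouse with 1 shallow region per compartment, had the smallest difference at 0.55. Its count was 2 in both compartments, so this difference came from the scaling to library size alone. The log2 fold change was 2.87 ± 0.19 with an edgeR adjusted p of 2.99e-10.

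Foxa2 in epithelium ran from 4.09 to 5.30 log2 CPM (median 5.04) in PV and from 4.62 to 6.58 (median 5.49) in WT mice. In stroma, where the gene was near the negative probes, it ran from 2.70 to 4.09 (median 3.19) and from 2.80 to 4.17 (median 3.59). The highest stroma value, of a WT mouse, was just above the lowest epithelium value, of PV5. The log2 fold change of Foxa2 was 1.94 ± 0.16 with an edgeR adjusted p of 3.42e-09. Its stroma values were mostly background, and the value was 2.99 when the negative-probe count was subtracted before summing.

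The secreted products and Aldh1a1 were higher in epithelium in some mice and level with stroma or lower in others. Cxcl15 was higher in epithelium in 10 of 13 mice, 7 of 7 WT and 3 of 6 PV, with differences from -1.39 in PV2 to 3.68 in WT2. In PV2 the counts in epithelium and stroma were 1 and 4, the 1 standing for a 0 that the authors had replaced. Its log2 fold change was 1.71 ± 0.37 with an edgeR adjusted p of 5.59e-04. Aldh1a1 was higher in 10 of 13 mice, from -1.52 in PV6 and -1.31 in WT6 to 4.61 in WT3, and its log2 fold change was 1.70 ± 0.51 (edgeR adjusted p = 0.00686).

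Ovgp1 was the weakest of the called members. Its difference was positive in 7 of 13 mice and ran from -0.52 in PV1 to 3.17 in WT1, and its log2 fold change was 0.85 ± 0.32 (edgeR adjusted p = 0.0250). The call rested on 3 WT mice, since it was lost without WT1 (0.61), WT2 (0.60) or WT5 (0.68). It was also lost in 7 of 13 alternative settings, with DESeq2 (0.62), upper-quartile scaling (0.71), the 3 limma fits (0.19 to 0.25), both plates (0.53) and the second plate alone (0.32). Compartment labels of the second plate did not follow the markers, and no gene at all was called there. A call lost with second-plate regions therefore says nothing about Ovgp1 itself.

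Lif, Prss28 and Prss29 were not called. Lif differed by 0.15 ± 0.24 (edgeR adjusted p = 0.598), was higher in epithelium in 6 of 13 mice, and turned to -0.13 without PV4. Prss28 gave -0.12 ± 0.14 and Prss29 0.04 ± 0.22 in a fit over all 19962 targets, with edgeR adjusted p values of 0.586 and 0.886.

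**Figure D2:**
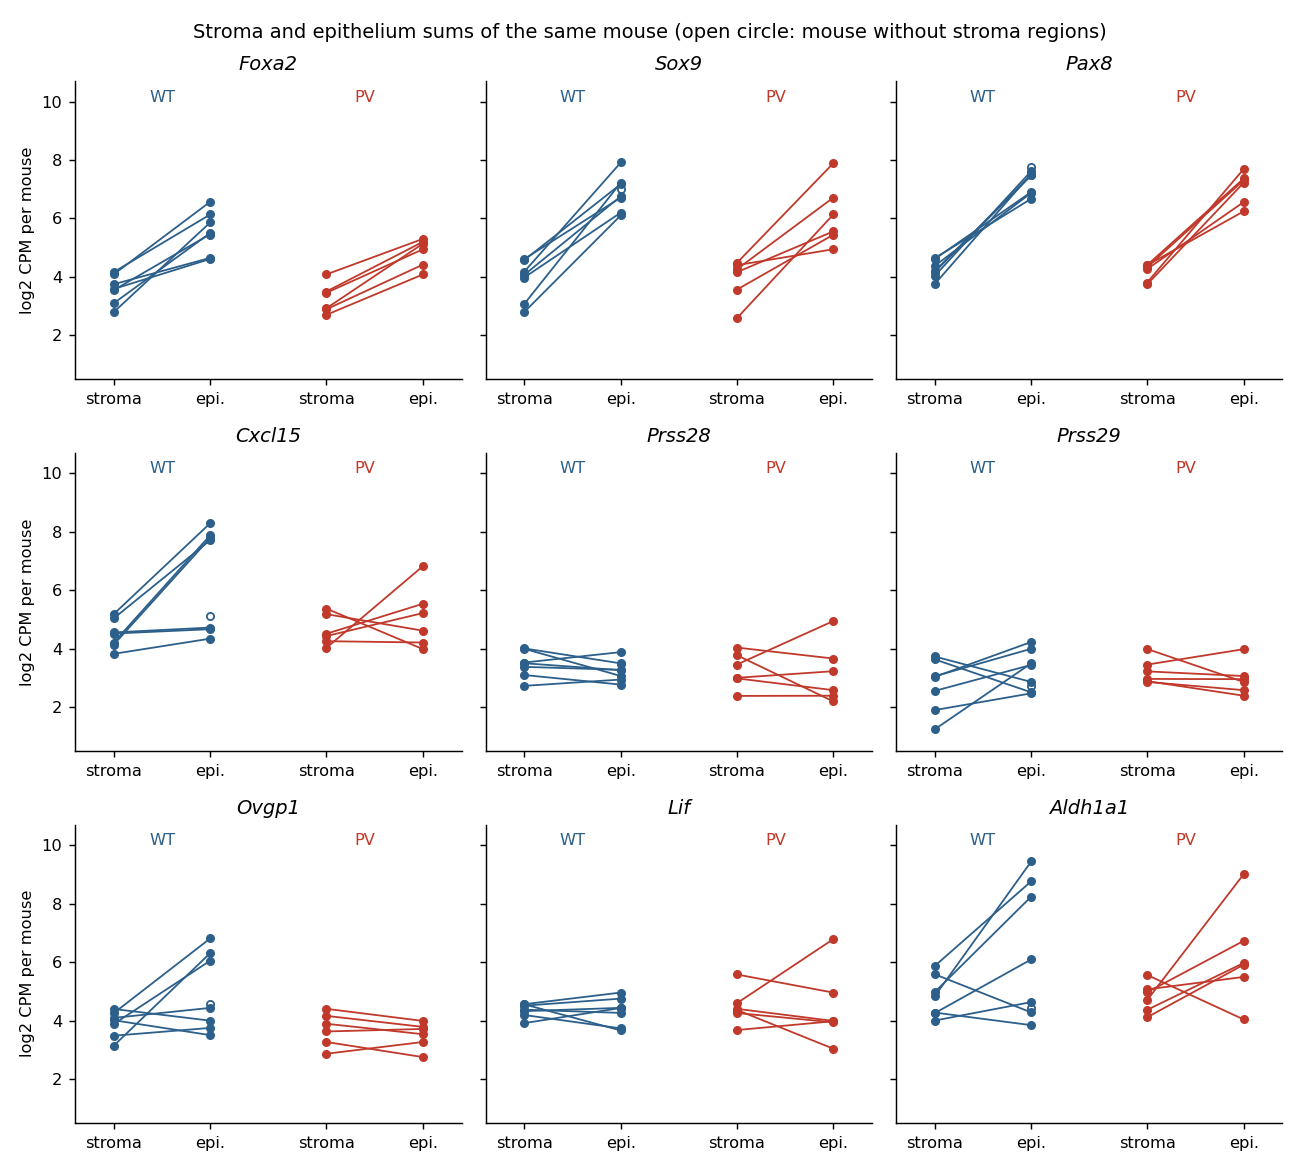
Stroma and epithelium sums of each member in log2 CPM, joined per mouse (blue WT, red PV; the open circle is WT4, which had no stroma region). Pax8, Sox9 and Foxa2 rise from stroma to epithelium in all 13 joined mice, in PV2 on counts of 5 or fewer. Cxcl15, Aldh1a1 and Ovgp1 rise steeply in some mice and stay level or fall in others, and Lif rises steeply in PV4 alone.

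Within each genotype the same contrast gave different counts of called members. In WT mice, where 48.8% of genes were called (22.1% higher, 26.8% lower), 6 of 7 tested members were called and all were higher in epithelium. Cxcl15 differed by 2.25 ± 0.45, Ovgp1 by 1.42 ± 0.35 and Aldh1a1 by 1.83 ± 0.68, with edgeR adjusted p values of 4.88e-04, 0.00297 and 0.0346. The call of Aldh1a1 was lost without WT1, WT2, WT3 or WT5, where its value ran as low as 1.34, and in 5 of 13 alternative settings (0.98 to 1.40). They were limma on per-mouse means at both pseudocounts, both plates, the second plate and mice with at least 2 regions. On the second plate, whose compartment labels did not follow the markers, no gene was called in WT, so the fits with its regions say nothing about Aldh1a1 itself. In PV mice, where 49.4% of genes were called (22.7% higher, 26.7% lower), 3 of 7 were called, namely Pax8 (3.12 ± 0.24), Sox9 (2.85 ± 0.32) and Foxa2 (1.77 ± 0.25).

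The secreted products and the enzyme Aldh1a1 were not called in PV mice. Cxcl15 differed by 0.95 ± 0.54 (edgeR adjusted p = 0.151), Ovgp1 by -0.04 ± 0.45 (0.957) and Aldh1a1 by 1.54 ± 0.80 (0.116). Aldh1a1 was called in PV mice when the mouse was not a block in the fit (2.32, edgeR adjusted p = 0.0354), with limma over regions (0.94) or when PV6 was left out (2.29). It fell to 0.73 without PV3, to -0.12 over both plates and to -0.59 on the second. The second plate's compartment labels did not follow the markers, and no gene was called in PV in either fit with its regions. Those fits therefore say nothing about Aldh1a1 itself. Cxcl15 was 0.32 without PV3 and 0.14 with limma on per-mouse means. An effect past the threshold in one genotype and not in the other does not show a difference between them, so the difference of the 2 contrasts was tested directly.

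That test, genotype by compartment, called 0 of 14881 genes (0%) with edgeR, 1 with DESeq2 and 65 with limma over regions, and 1066 genes (7.16%) had an unadjusted p under 0.05. No member was called by any of the 3. Ovgp1 differed most, by -1.46 ± 0.57 (p = 0.0204, edgeR adjusted p = 0.639), with a range of -1.70 to -1.13 when 1 mouse was left out. Cxcl15 differed by -1.30 ± 0.70 (edgeR adjusted p = 0.731). Foxa2, Sox9 and Pax8 differed by -0.28, -0.03 and 0.14, and their 95% intervals, from -0.93 to 0.37, from -0.89 to 0.82 and from -0.49 to 0.77, do not show that the genotypes were alike.

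PV and WT were next compared within the epithelium, 6 mice against 8, to ask whether the gland genes follow the genotype. No gene of the 14881 was called by edgeR (0%), and no member. At an unadjusted p under 0.05 there were 1223 genes (8.22%), among them 3 of the 7 tested members, all lower in PV. DESeq2 called 28 genes, edgeR with age as a covariate 10, and limma over regions 1, none of them a member. The median log2 difference was -0.48 over the 7 tested members and -0.01 over all genes, and 1 of 7 was above 0.

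Ovgp1 showed the largest difference of the members. It ran from 2.75 to 3.99 log2 CPM (median 3.62) in PV mice, the highest being PV2 on a count of 1, and from 3.50 to 6.81 (median 4.51) in WT mice. WT1, WT2 and WT5 were far above the rest at 6.31, 6.81 and 6.05, and WT3 and WT8 lay within the PV range. The log2 fold change, PV minus WT, was -1.99 ± 0.56 (p = 0.00231, edgeR adjusted p = 0.375), and it stayed between -2.15 and -1.59 when any 1 mouse was left out. Such fits do not show the value without WT1, WT2 and WT5 together. DESeq2 gave -1.99 with an adjusted p of 0.0610.

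Cxcl15 ran from 3.99 to 6.83 log2 CPM (median 4.92) in PV mice and from 4.35 to 8.30 (median 6.42) in WT mice. The 3.99 was that of PV2, whose count of 1 stood for a replaced 0. The WT mice fell apart, with WT1, WT2, WT3 and WT5 at 7.72 to 8.30 and the other 4 at 4.35 to 5.13, inside the PV range. PV3, at 6.83, was the highest PV mouse. The log2 fold change was -1.51 ± 0.68 (p = 0.0406, edgeR adjusted p = 0.593).

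Foxa2 was lower in PV by 0.72 ± 0.31 on the log2 scale in the edgeR fit (p = 0.0325, edgeR adjusted p = 0.579). The value ran from -0.81 to -0.50 when 1 mouse was left out. It was -0.50 without WT6, the highest mouse, whose sum rested on 1 region at 68.1 times the negative-probe count. Of the 8 WT mice, 6 lay above the highest PV mouse, and WT7 and WT8, the oldest, lay within the PV range at 4.65 and 4.62 log2 CPM. Limma on per-mouse means averaged the log2(value + 1) of the regions, where edgeR summed their counts. It gave -0.21 for Foxa2, -1.12 for Ovgp1 and -0.94 for Cxcl15. At a pseudocount of 10 it gave -0.18, -0.68 and -0.75. Why these values were smaller was not tested.

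Lif was the only tested member with a higher estimate in PV, and it turned on 1 mouse. PV4 had 6.79 log2 CPM while the other 5 PV mice had 3.04 to 4.95, and the 8 WT mice had 3.66 to 4.96. The log2 fold change of 0.92 ± 0.45 (edgeR adjusted p = 0.611) became -0.27 without PV4. Aldh1a1 was spread widely in both genotypes, from 4.04 to 9.01 log2 CPM in PV and from 3.84 to 9.44 in WT mice. Its log2 fold change was -0.48 ± 0.93 (edgeR adjusted p = 0.945), and leaving out PV3 moved it to -1.97 while leaving out WT3 moved it to 0.17.

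Sox9 and Pax8 differed by -0.39 ± 0.39 and -0.14 ± 0.23 (edgeR adjusted p = 0.834 and 0.926), and PV4 again stood out for Sox9, with -0.997 when it was left out. Prss28 and Prss29, near the negative probes, differed by -0.23 ± 0.24 and -0.48 ± 0.30 in the fit over all targets. Age moved with the genotype, the WT mice being older. With age as a covariate the values of Ovgp1 and Cxcl15 were -2.36 ± 0.50 and -2.26 ± 0.56 (edgeR adjusted p = 0.113 and 0.149), Aldh1a1 was -1.55 ± 0.77 and Sox9 0.11 ± 0.40.

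Marker groups of the epithelia were read beside these values. The luminal list, of 6 genes, had a summed CPM of 365 to 980 (median 725) in PV and 212 to 1223 (median 459) in WT epithelium, with a median log2 difference of 0.70 and 3 of 6 genes at an unadjusted p under 0.05. The summed CPM of the 12 columnar epithelium genes was 2853 to 6392 (median 5551) in PV and 3120 to 5827 (median 4107) in WT epithelium. The summed CPM of 11 squamous epithelium genes was 85.9 to 509 (median 126) in PV and 65.7 to 177 (median 110) in WT, with PV5 highest, and 10 of the 11 had a median under 2 times the negative-probe count in each genotype. WT1, WT2 and WT5, the mice highest in Ovgp1 and high in Cxcl15, had luminal sums of 880 to 1223, against 212 to 541 in the other WT mice. For a list of 12 other secretory genes they had 1080 to 1654, against 6317 to 21517, and PV mice had 1281 to 10090. The part of these lists in the member values was not tested.

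In stroma, edgeR called 0 of 14881 genes between PV and WT (0%), DESeq2 2 and limma over regions 2, and 524 genes (3.52%) had an unadjusted p under 0.05. The 7 tested members lay between -0.34 (Foxa2) and 0.23 (Lif), with SE of 0.21 to 0.33, and 0 of them had an unadjusted p under 0.05. Aldh1a1, the only member over 10 times the negative-probe count in any stroma region (3 of 35), differed by -0.19 ± 0.31.

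**Figure D3:**
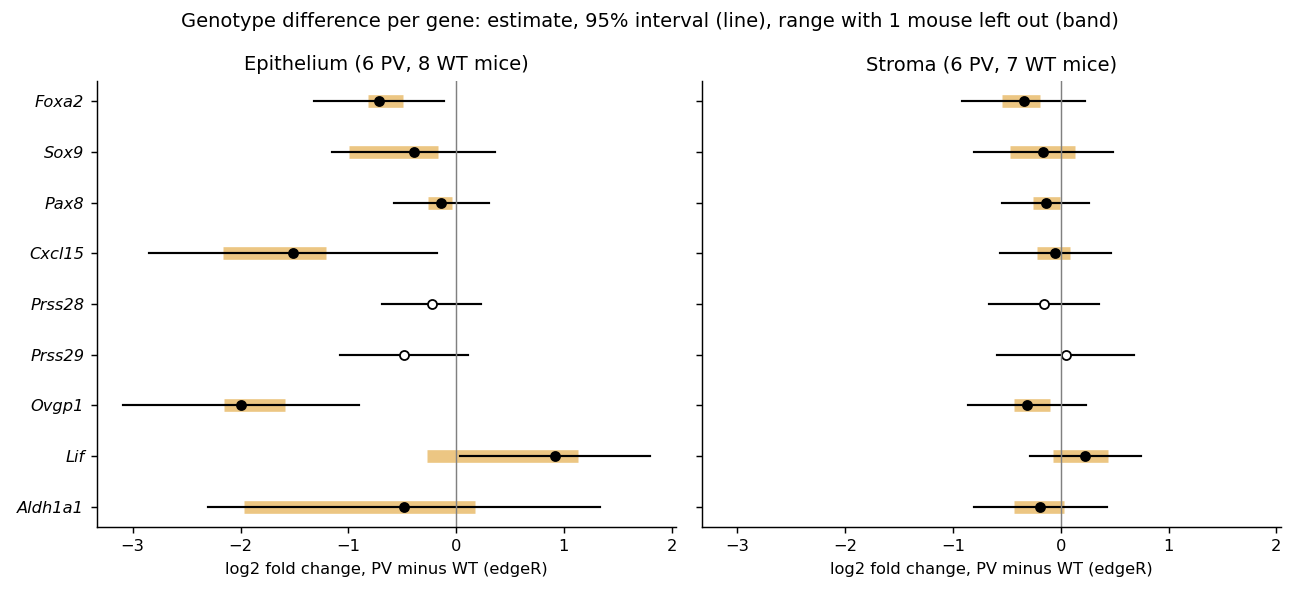
Log2 fold change of each member, PV minus WT, in epithelium and in stroma from the edgeR fits. Points are estimates (open for Prss28 and Prss29, from the fit over all targets), lines are 95% intervals from the SE, and orange bands are the range over fits with 1 mouse left out. In epithelium Ovgp1 at -1.99, Cxcl15 at -1.51 and Foxa2 at -0.72 have intervals below 0, none of the 3 being called after adjustment. The interval of Lif lies just above 0 (0.035 to 1.80, unadjusted edgeR p = 0.0570), and its band crosses 0. The intervals are approximate, at 1.96 SE to each side, and somewhat narrower than the test implies.

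Sums per mouse hide how uneven the members were from region to region. Over 59 epithelium regions of the 13 mice with at least 2, the standard deviation within mice on the log2 scale was 1.72 for Cxcl15 and 1.41 for Foxa2, against a median of 0.46 over all genes. These values stood at percentiles 99.9 and 99.8 of all genes. Aldh1a1 (percentile 99.0), Sox9 (97.8), Lif (97.6) and Ovgp1 (97.3) were also among the most uneven genes, while Pax8, at 0.33, stood at percentile 22.4. In stroma the same 7 members stood between percentiles 46.6 and 90.4.

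Foxa2 and Cxcl15 were high in the same regions. Foxa2 was over 10 times the negative-probe count in 17 epithelium regions and Cxcl15 in 16, and the 2 lists shared 15 regions, so 15 of 17 and 15 of 16 were in the other list. These regions came from both genotypes. For Cxcl15 they were 4 of 8 regions of PV3 (39.6 to 75.6 times), 3 of 15 of PV4 (22.3 to 29.7), 1 of 2 of PV1 (16.1), 3 of 5 of WT2 (85.2 to 112), 2 of 3 of WT1 (119 and 137), 2 of 4 of WT5 and 1 of 2 of WT3.

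Within a mouse the step was large. In WT1, 2 regions had Cxcl15 at 119 and 137, Foxa2 at 21.1 and 13.9 and Sox9 at 35.5 and 46.0 times the negative-probe count. The remaining WT1 region had Cxcl15 at 4.07, Foxa2 at 1.16 and Sox9 at 4.46, while Ovgp1 there was 30.8 against 3.51 and 5.08 in the other two. PV3 showed the same step for Cxcl15 and Foxa2, its other 4 regions having Cxcl15 at 2.00 to 3.76 and Foxa2 at 1.00 to 2.30. The Ovgp1 part of the step was absent in PV3, where Ovgp1 was 0.525 to 2.97 in all 8 regions.

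An exception was 1 region of WT6, which had the highest Foxa2 of all at 68.1 times the negative-probe count with Cxcl15 at 4.09, Sox9 at 11.2 and Aldh1a1 at 3.54. The other 5 regions of WT6 had Foxa2 at 1.65 to 7.37, so that the high Foxa2 sum of this mouse rested on 1 region.

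Ovgp1 was high in few regions, and most of them were not high in Foxa2. It was over 10 times the negative-probe count in 6 regions, 3 of WT2, 2 of WT5 and 1 of WT1. Foxa2 was over 10 as well in 1 of these 6, beside 17 of all 60 epithelium regions. So small an overlap does not show that the genes are high in separate regions. The median in these 6 regions was 1.96 for Foxa2 and 4.33 for Sox9, against 5.66 and 24.1 in the remaining epithelium regions. No PV epithelium region was over 3.71 for Ovgp1.

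Lif was over 10 times the negative-probe count in 8 regions, all of them of PV4, where it ran from 20.6 to 39.4. The remaining 7 regions of PV4 had 2.06 to 6.32. In the 8 high regions Cxcl15 was 1.99 to 3.80, Foxa2 4.03 to 9.78 and Aldh1a1 0.733 to 3.26, while Sox9 was 38.7 to 70.1. Of the 15 PV4 regions, Lif was over 10 in 8 and Cxcl15 in 3, and none had both. With so few regions of 1 mouse, the lack of overlap does not show that the genes exclude each other.

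High Aldh1a1 covered every epithelium region of some mice. It was over 10 times the negative-probe count in 8 of 8 regions of PV3 (30.9 to 170), 5 of 5 of WT2 (34.9 to 79.2), 3 of 3 of WT1 (52.5 to 143), 2 of 2 of WT3 (55.8 and 187) and 2 of 2 of PV1 (12.7 and 16.1), but in 1 of 15 of PV4 (108). It was over 10 in no epithelium region of PV2, PV6, WT4, WT6, WT7 and WT8, so mice of both genotypes stood on each side.

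**Figure D4:**
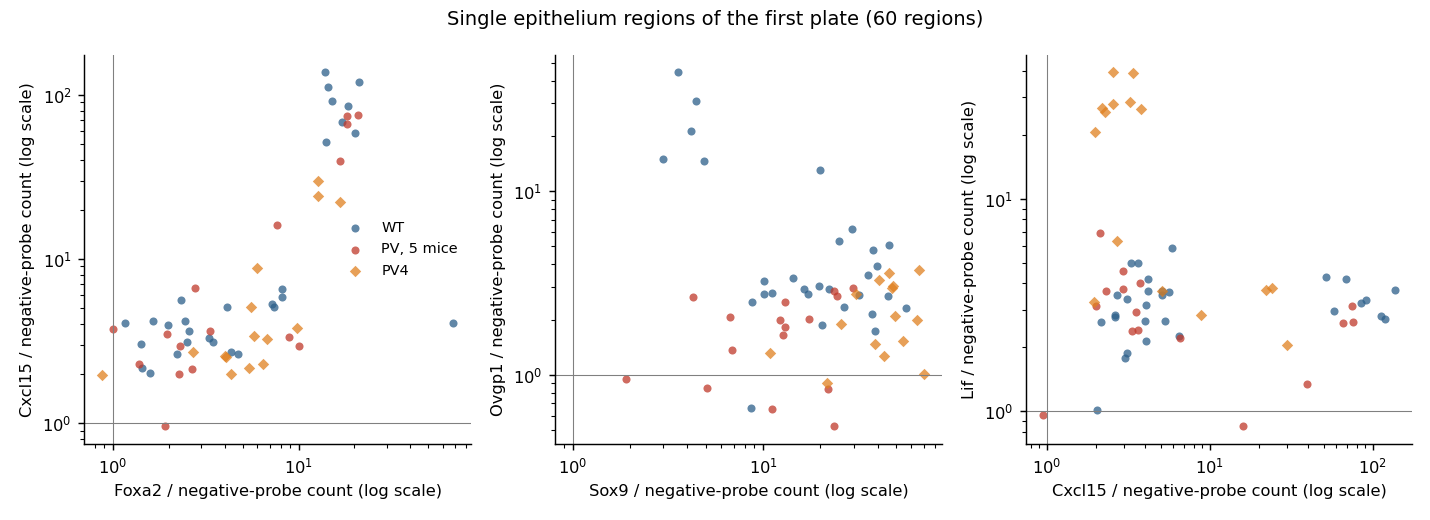
Single epithelium regions of the first plate (60), each axis a member's count over the negative-probe count on a log scale (blue WT, red 5 PV mice, orange diamonds PV4; gray lines at 1). Regions with Foxa2 over 10 have high Cxcl15 apart from 2, and Ovgp1 over 10 is found in 6 WT regions of which 5 have Sox9 under 5. The 8 regions with high Lif are all of PV4 and have Cxcl15 under 4. The median of Cxcl15 over the 60 regions was 3.90.

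The same patterns were described as correlations of log2 values centred on the mouse, over 59 epithelium regions of 13 mice. Regions of 1 mouse share their animal, their core and often their depth, so no p is given. Foxa2 and Cxcl15 had a Pearson r of 0.83 (0.87 in 30 PV regions and 0.79 in 29 WT regions), Foxa2 and Sox9 0.71, and Sox9 and Cxcl15 0.72. The last of these was 0.21 without centring. For Foxa2 and Cxcl15, r was 0.90 without the 2 regions farthest from the median of Foxa2. Foxa2 and Ovgp1 had r = -0.24 (0.25 in PV regions and -0.51 in WT regions).

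Ovgp1 ran against Sox9 and Cxcl15 in WT regions but not in PV regions, and the difference was not tested. Its r with Sox9 was -0.75 and with Cxcl15 -0.69 in WT, against 0.17 and 0.22 in PV, where Ovgp1 was mostly near the negative-probe level. Lif and Cxcl15 had r = 0.47 in WT and -0.52 in PV regions, and Lif and Aldh1a1 0.14 and -0.47, 15 of the 30 PV regions being of PV4. Pax8 and Sox9 had r = 0.63 in WT and 0.03 in PV regions.

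**Figure D5:**
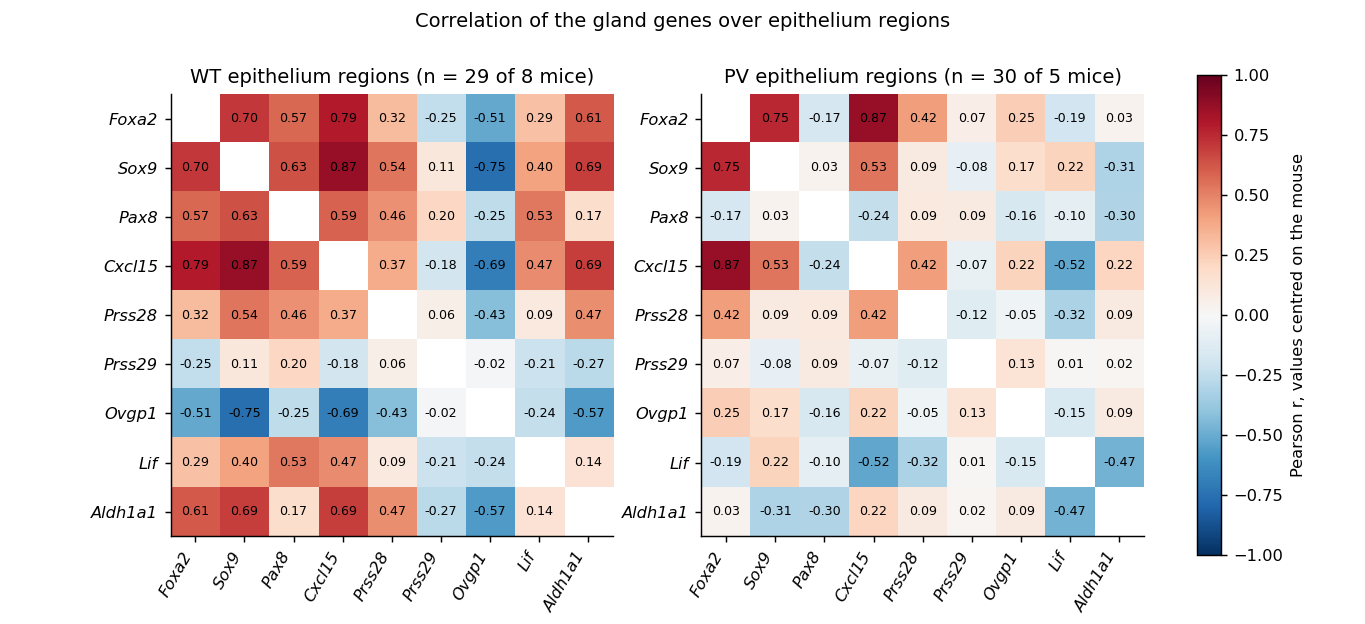
Pearson correlation between members over epithelium regions, values centred on the mouse, for WT (29 regions of 8 mice) and PV (30 regions of 5 mice). Red is positive and blue negative. Foxa2 and Cxcl15 stand at 0.79 and 0.87, Ovgp1 and Sox9 at -0.75 in WT and 0.17 in PV.

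The genes whose region pattern was most like that of each member were taken as the 3 with the highest r over the same 59 regions. For Cxcl15 they were Stk39, Wfdc15b and Krt23, each at r = 0.90, and for Foxa2 they were Cxcl15, Adhfe1 and Stk39 (0.83, 0.79 and 0.78). For Sox9 they were Il6st, the shared receptor chain through which Lif signals (0.90), Xbp1, a transcription factor of secretory cells (0.88), and Atp6v0a4 (0.86). For Ovgp1 they included Lrp2, an endocytic receptor (0.81), and Slc13a5 (0.72).

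Aldh1a1 was nearest to Hmgn2, Mrpl42 and Soat1 (0.80, 0.78 and 0.75). Pax8 had lower values, with Kif13b at 0.68, Sgms2 at 0.64 and Phlda1 at 0.61. Lif was nearest to Prok2, Cilk1 and Trim27 (0.82, 0.81 and 0.80), but its high regions were all of PV4. In second-plate regions labelled epithelium, where labels did not follow the markers, these 3 had r = 0.28, 0.28 and -0.15 with Lif. There r was 0.56, 0.89 and 0.05 for the 3 genes of Pax8 and 0.75, 0.51 and 0.61 for those of Aldh1a1. The genes named above for Cxcl15, Foxa2, Sox9 and Ovgp1 had 0.42 to 0.86. The 95th percentile of r over the 14880 other genes was 0.34 to 0.53, depending on the member.

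Markers of other cell types moved with these patterns. The mean level of 6 luminal epithelium genes had r = -0.88 with Cxcl15, -0.78 with Foxa2 and -0.79 with Sox9, but 0.38 with Ovgp1. Krt8, a keratin of all columnar epithelium, had r = -0.84 with Cxcl15 and was at a median of 122 times the negative-probe count in the 16 regions with high Cxcl15, against 209 in the rest. Foxj1, the regulator of ciliated cells, had r = 0.68 with Cxcl15, with medians of 8.39 and 2.10, while the mean level of the 5 ciliated cell genes had r = 0.45 with Cxcl15 and 0.25 with Sox9. The region total had r = -0.39 with Cxcl15 and -0.31 with Foxa2. The part of cell mixture and of depth in the member patterns was not tested.

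The promoters of Foxa2 and Cxcl15, which moved together, and of Ovgp1, which did not move with them, are shown because Foxa2 and Sox9 bind known short motifs. The sequences are from RefSeq on GRCm38.p6 and hold the 250 bases before the start of the transcript, in gene orientation. The search was for the forkhead motifs TGTTTAC and TGTTTGC and the SOX core ACAAAG, on both strands, and matches are in capitals.
Cxcl15, chr5:90794284-90794533, plus strand: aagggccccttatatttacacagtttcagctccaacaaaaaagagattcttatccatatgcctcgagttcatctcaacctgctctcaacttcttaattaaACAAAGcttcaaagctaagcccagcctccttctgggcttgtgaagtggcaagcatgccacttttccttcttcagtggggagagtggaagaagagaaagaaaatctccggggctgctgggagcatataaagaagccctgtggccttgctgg
Foxa2, chr2:148046970-148047219, minus strand: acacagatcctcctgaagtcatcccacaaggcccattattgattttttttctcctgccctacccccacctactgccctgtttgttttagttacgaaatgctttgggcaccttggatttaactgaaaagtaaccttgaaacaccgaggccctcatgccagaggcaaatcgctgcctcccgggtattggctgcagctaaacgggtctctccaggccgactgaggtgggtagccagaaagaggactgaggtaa
Ovgp1, chr3:105973552-105973801, plus strand: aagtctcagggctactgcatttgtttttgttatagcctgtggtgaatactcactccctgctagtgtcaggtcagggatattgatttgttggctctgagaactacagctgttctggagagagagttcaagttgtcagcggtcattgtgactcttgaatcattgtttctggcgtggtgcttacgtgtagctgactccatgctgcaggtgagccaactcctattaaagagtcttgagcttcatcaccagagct

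Sox9 had no window to search. Neither forkhead motif was found in these windows, nor in those of the other members searched, which says only that these letters are not there. Either one was present in 7.29% of the 32851 RefSeq promoter windows of the same length. The SOX core was found in the windows of Cxcl15, Prss28 and Prss29, in 1 of 2 of Aldh1a1 and in 1 of 3 of Foxa2, and it was present in 16.5% of all windows. Prss28 and Prss29 lie next to each other on chromosome 17 (25308646 to 25311876 and 25318654 to 25322684, plus strand, GRCm38.p6) and are related in sequence, so that a probe of one may also read the other.

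Genes that act with the members were read in the same fits. The counts of genes higher or lower in epithelium stand beside 28.4% higher and 34.6% lower over all genes tested. Of 25 tested genes of gland development, 11 were higher and 10 lower in epithelium, among them Cdh1, the epithelial cadherin (3.80 ± 0.14), and Pax2, a Mullerian factor like Pax8 (3.11 ± 0.15), on the epithelial side. Hoxa10 (-2.92 ± 0.14) and Hoxa11 (-2.68 ± 0.14), the homeobox factors of the uterine stroma, were on the other. Of 13 genes of the Lif pathway, 6 were higher and 6 lower. Msx1 (3.74 ± 0.16) and the kinase Jak2 (2.37 ± 0.16) were higher, and the inhibitor Socs1 (-1.35 ± 0.16) and the kinase Jak1 (-0.87 ± 0.11) lower.

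Of 16 genes of the retinoid pathway, in which Aldh1a1 acts, 5 were higher and 4 lower, beside 28.4% higher and 34.6% lower over all genes. Rdh10, which supplies retinaldehyde, was higher in epithelium (3.03 ± 0.16) like Aldh1a1, while its sister enzyme Aldh1a2 was lower (-2.10 ± 0.21). Of 11 other secretory genes, 7 were higher and 2 lower, led by the protease inhibitor Wfdc2 (4.31 ± 0.17) and the mucin Muc1 (3.53 ± 0.23), with Csf1 (-1.04 ± 0.16) and Gpx3 (-2.19 ± 0.36) lower. Of 6 luminal genes 5 were higher, with Calb1 at 3.61 ± 0.24. The ciliated cell list was mixed, with Foxj1 higher (1.08 ± 0.24) and Tppp3 (-1.67 ± 0.20) and Dynlrb2 (-0.36 ± 0.12) lower. Between PV and WT, no gene of any of these lists was called by edgeR in either compartment, with unadjusted p under 0.05 for 7 of 25 gland development genes, 2 of 13 of the Lif pathway, 3 of 16 of the retinoid pathway, 5 of 11 secretory genes, 3 of 6 luminal genes and 1 of 5 ciliated cell genes in epithelium, beside 8.22% of all genes.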

How the data were processed

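Regions of mouse uterus were profiled with the GeoMx Whole Transcriptome Atlas. The deposited table holds expected counts per target and region, in which the authors replaced 0 by 1. The deposited normalised table holds signal values that the authors scaled by each region's upper quartile (Q3) after a filter on detection. Deposited per-region counts per probe gave the true zeros. Per the labels, the processing notes name R 4.1.2, Space Ranger and mm10. The sources used here name no other build. The negative-probe row was left out of library sizes (5.27e-04% of the total).

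Members, lists and tests were chosen with earlier results of these data known. First-plate counts were summed per mouse and compartment, rounded to whole numbers, and tested over the 14881 genes of the filtered table with the quasi-likelihood test of edgeR 4.0.16 (R 4.3.3, TMM, two-sided, Benjamini-Hochberg, adjusted p threshold 0.05). SE is the estimate over the root of F. The log2 CPM of a mouse used a prior count of 2. Prss28 and Prss29 are outside that table and come from a fit over all 19962 targets. Compartments were compared with the mouse as a block. A mouse's epithelium and stroma sums deviated together (r = 0.152 to 0.521, 13 of 13 over 0.1, against a median of -0.04 between mice). Region correlations used log2(Q3 value + 1), or log2(CPM + 1) for Prss28 and Prss29. Named genes were the members, up to 2 called genes per list and direction, and the 3 nearest genes per member, of which 1 is not reported here. Second-plate regions were left out because their compartment labels did not follow the markers. The labels name 14 animals and the design text 13, and the labels were used.

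On simulated sums the compartment fit recovered 98 of 100 genes changed by a log2 of 1 and 100 of 100 changed by 2. The genotype fit in epithelium recovered 53 of 100 and 98 of 100. The 2 fits also called 9 and 5 unchanged genes. The changed genes were drawn at random, so these shares do not carry over to the more variable members. The simulated means held no mouse effect, and only a small part of the 14881 genes was changed, where the real compartment contrast called 63%. The simulation therefore does not show how the fit handles paired mice, or its scaling when most genes differ. Ovgp1, Cxcl15 and Aldh1a1 had an SE of 0.56, 0.68 and 0.93 in the genotype fit. Alternatives were DESeq2 1.42.0, upper-quartile scaling, other gene filters, subtraction of the negative-probe count, true zeros, limma 3.58.1 with pseudocounts of 1 and 10 and over regions, both plates, the second plate, mice with at least 2 regions, age, no replicate block and each mouse left out. The correlations within each genotype and without 2 regions were added after the data were seen.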

Additional observations from a re-analysis of the deposited data

How the results depend on the processing

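The mouse paired the compartments, so the fits of epithelium against stroma had it as a replicate block. With no replicate block, 7933 genes were called in place of 9380, 5330 in WT and 0 by genotype and compartment. Of the member values recomputed under the alternatives other than leaving out a mouse, 481 kept their direction and their side of the threshold, 29 lost their call, 2 gained one and 46 changed sign. Called values changed sign only for Sox9 between compartments and for Sox9 and Pax8 in PV, on the second plate alone, and the cause was not tested.

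Whole-table counts moved as follows. The compartment comparison called 5631 genes over both plates and 0 on the second plate alone, the WT comparison 0 on the second plate, and the PV comparison 0 over both plates and 0 on the second. Genotype by compartment called 1 with DESeq2 and 65 with limma over regions. Genotype in epithelium called 10 with age, 28 with DESeq2 and 1 with limma over regions, and genotype in stroma 2, 2 and, with limma at a pseudocount of 10, 1. With 1 mouse left out, genotype in epithelium called 0 to 6 (6 without PV6 or WT6, 1 without PV4 or WT8) and in stroma 0 to 1. A limit at 1 geometric standard deviation raised the member and region pairs over it from 397 to 618.

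On the second plate, whose compartment labels did not follow the markers, the compartment difference was -0.11 for Sox9 and -0.28 for Lif. In PV it was -0.65 for Sox9, -0.77 for Pax8, -0.30 for Lif and -0.59 for Aldh1a1. There genotype by compartment was -1.91 for Pax8, 0.058 for Cxcl15 and -0.043 for Lif, and genotype in stroma 0.28 for Sox9, 0.82 for Pax8, 0.17 for Ovgp1 and 0.58 for Aldh1a1. Over both plates, Lif was -0.066 between compartments, Aldh1a1 -0.12 in PV, Pax8 -1.38 by genotype and compartment, and the stroma genotype values of Sox9, Pax8, Ovgp1 and Aldh1a1 were 0.10, 0.65, 0.0059 and 0.72.

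On the first plate, limma at pseudocounts of 1 and 10 gave Lif -0.12 and -0.050 between compartments, -0.24 and -0.087 in PV and -0.22 and -0.069 by genotype and compartment, Pax8 -0.018 and -0.078 by genotype and compartment, and Cxcl15 0.11 and 0.090 by genotype in stroma, with Sox9 at 0.0018 there. By genotype and compartment, Foxa2 was 0.049 with limma on means, and limma over regions gave Foxa2 0.10 and Sox9 0.31. Lif in WT was 0.0093 with DESeq2, 0.035 with no gene filter and with filterByExpr, 0.033 with no replicate block, and 0.053 with limma over regions. Ovgp1 in PV was 0.059 under both other gene filters and 0.074 with negative probes subtracted, which also gave Sox9 0.081 by genotype and compartment. Mice with at least 2 regions gave Sox9 0.17 and Aldh1a1 0.16 there, and age gave Sox9 0.11 in epithelium.

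With 1 mouse left out, ranges crossing 0 were, for Lif, -0.13 to 0.27 between compartments, -0.16 to 0.14 in WT, -0.31 to 0.74 in PV, -0.28 to 0.78 by genotype and compartment, -0.27 to 1.13 by genotype in epithelium and -0.073 to 0.44 in stroma. They were -1.11 to 0.43, -1.97 to 0.17 and -0.44 to 0.032 for Aldh1a1 in the last 3 comparisons. By genotype and compartment, Sox9 ran from -0.35 to 0.22 and Pax8 from -0.042 to 0.29, in stroma Sox9 ran from -0.47 to 0.13 and Cxcl15 from -0.22 to 0.090, and Ovgp1 in PV ran from -0.18 to 0.060.

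Among the stronger correlations, the sign of Sox9 with Ovgp1 (0.17 in PV), of Cxcl15 with Ovgp1 (0.22 in PV, 0.088 without centring) and of Lif with Aldh1a1 (0.14 in WT) changed. Weaker ones changed too, such as Cxcl15 with Lif (-0.25, in WT 0.47), Foxa2 with Pax8 (0.24, in PV -0.17) and Sox9 with Aldh1a1 (0.13, without centring -0.44). The counts of Prss28, Prss29, stroma Foxa2 and PV Ovgp1 were mostly near the negative probes, which limits what their differences can show.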
